A study of Mus musculus with 10 samples.

Results

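Rab GTPases and the Rab11 family-interacting proteins were followed in mouse liver endothelial cells. Members were the protein-coding genes whose mouse symbol is Rab with a number and an optional letter, together with Rab11fip1 to Rab11fip5. The rule found 64 genes, 59 Rab GTPases and 5 Rab11 effectors, among the 55385 genes listed for each library. RNA-seq libraries of 2 groups were compared: 5 labelled Alk1-HEC-KO with the genotype KO, and 5 labelled Control with the genotype WT. The endothelial fraction came from a Nycodenz gradient of the non-hepatocyte cells followed by selection with CD146 beads. The sources used here do not give the promoter or Cre line behind the deletion, the strain or the age of the mice.

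Rab proteins are small GTPases that switch between a GDP-bound form held in the cytosol by a dissociation inhibitor and a GTP-bound form on a membrane. Each Rab marks its own compartments and recruits effectors that move, tether and fuse vesicles there, while exchange factors load the GTP and GTPase activating proteins end the signal. Sinusoidal endothelium of the liver is known for very active endocytosis, and endothelial cells store secretory cargo in Weibel-Palade bodies whose release depends on Rab27a and Rab3 proteins. Rab11 and its effectors, the FIPs, return receptors from the recycling endosome to the cell surface. Class I FIPs (Rab11fip1, Rab11fip2 and Rab11fip5) carry a C2 domain that binds membrane lipids, and class II FIPs (Rab11fip3 and Rab11fip4) carry EF hands.

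Totals lay between 23489494 and 23602771 estimated counts per library. Acvrl1, the gene that encodes ALK1, was higher in the libraries labelled Alk1-HEC-KO, at 239 to 258 CPM (counts scaled to library size), than in the controls, at 114 to 136 CPM (1.95-fold, edgeR adjusted p = 1.7e-07). Which exons the reads came from cannot be read from totals per gene, so directions below are those of the knockout-labelled libraries, written KO 1 to KO 5, against controls 1 to 5. Pan-endothelial markers summed to 9239 to 10630 CPM in controls and 9010 to 9656 CPM in knockout-labelled libraries. Of these 8 genes 3 rose (Mcam, Fli1 and Pecam1) and 2 fell (Kdr and Tek), and Mcam, which encodes CD146, rose 1.64-fold. The 7 sinusoidal markers summed to 19220 to 21810 and 13020 to 14750 CPM, and 6 of them fell. Hepatocyte markers, of which 3 of 10 fell, summed to 673 to 2248 and 650 to 1369 CPM. Stellate cell and fibroblast markers summed to 106 to 194 and 175 to 241 CPM, and 2 of 8 rose, the collagen genes Col1a1 and Col3a1. Dcn, Lrat, Reln, Des, Pdgfrb and Lum were not called (edgeR adjusted p from 0.093 to 0.98). Lymphocyte markers summed to 23.2 to 32.3 and 23.1 to 51.7 CPM, and 2 of 8 fell, the T cell genes Cd3d and Trbc2. Platelet markers summed to 12.7 to 20.1 and 12.6 to 21.6 CPM, and none of the 3 tested was called by edgeR (unadjusted p from 0.1 to 0.69). Mitochondrial genes took 4.27 to 6.43% of counts in controls and 3.45 to 4.32% in knockout-labelled libraries. In bulk libraries, fewer cells of a type and less RNA per cell cannot be told apart.

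Rab5c, a Rab of early endosomes, had the highest level of the 64 members in both groups. Levels of different genes are compared here only in the deposited TPM values, which account for gene length. In controls the mean Rab5c level was 514 ± 22 TPM (SD, n = 5), followed by Rab11a of recycling endosomes at 429 ± 36.4 TPM and Rab7 of late endosomes and lysosomes at 395 ± 22.3 TPM. The Rab11a libraries ran from 390 to 468 TPM and the Rab7 libraries from 360 to 415 TPM, so these neighbours in the order overlapped. Rab2a and Rab1a, which act between the endoplasmic reticulum and the Golgi, stood at 196 ± 8.2 and 183 ± 13.5 TPM, and Rab1b, with the same role, at 171 ± 7.37 TPM. Rab11b, the other ubiquitous Rab11, was at 134 ± 8.12 TPM, and Rab12, which acts in receptor degradation and recycling, at 115 ± 9.29 TPM.

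These 8 genes held 59.3% ± 0.86 of all Rab and Rab11 effector TPM in controls and 58.4% ± 0.22 in knockout-labelled libraries (SD, n = 5 each). They kept ranks 1 to 8 in both groups. In all, 10 members had a control mean over 100 TPM, 28 lay from 10 to 100 TPM, 10 from 1 to 10 TPM and 16 under 1 TPM. The sum over all members was 3605 ± 180 TPM in controls and 3745 ± 101 TPM in knockout-labelled libraries. No TPM sum given here was corrected for the general offset between the groups. On the log2(TPM + 1) scale the median log2 fold change of all genes was 0.08. Summed by role, the recycling Rabs reached 838 ± 53.5 and 890 ± 32.3 TPM, the Rabs of the endoplasmic reticulum and Golgi 811 ± 47.9 and 841 ± 23.7 TPM, and the early endosome Rabs 764 ± 37.8 and 774 ± 58 TPM. Lowest were Rab3c, a neuronal Rab3, at 0 to 0.03 TPM, and Rab9b, whose rounded count was 0 in every library.

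**Figure D1:**
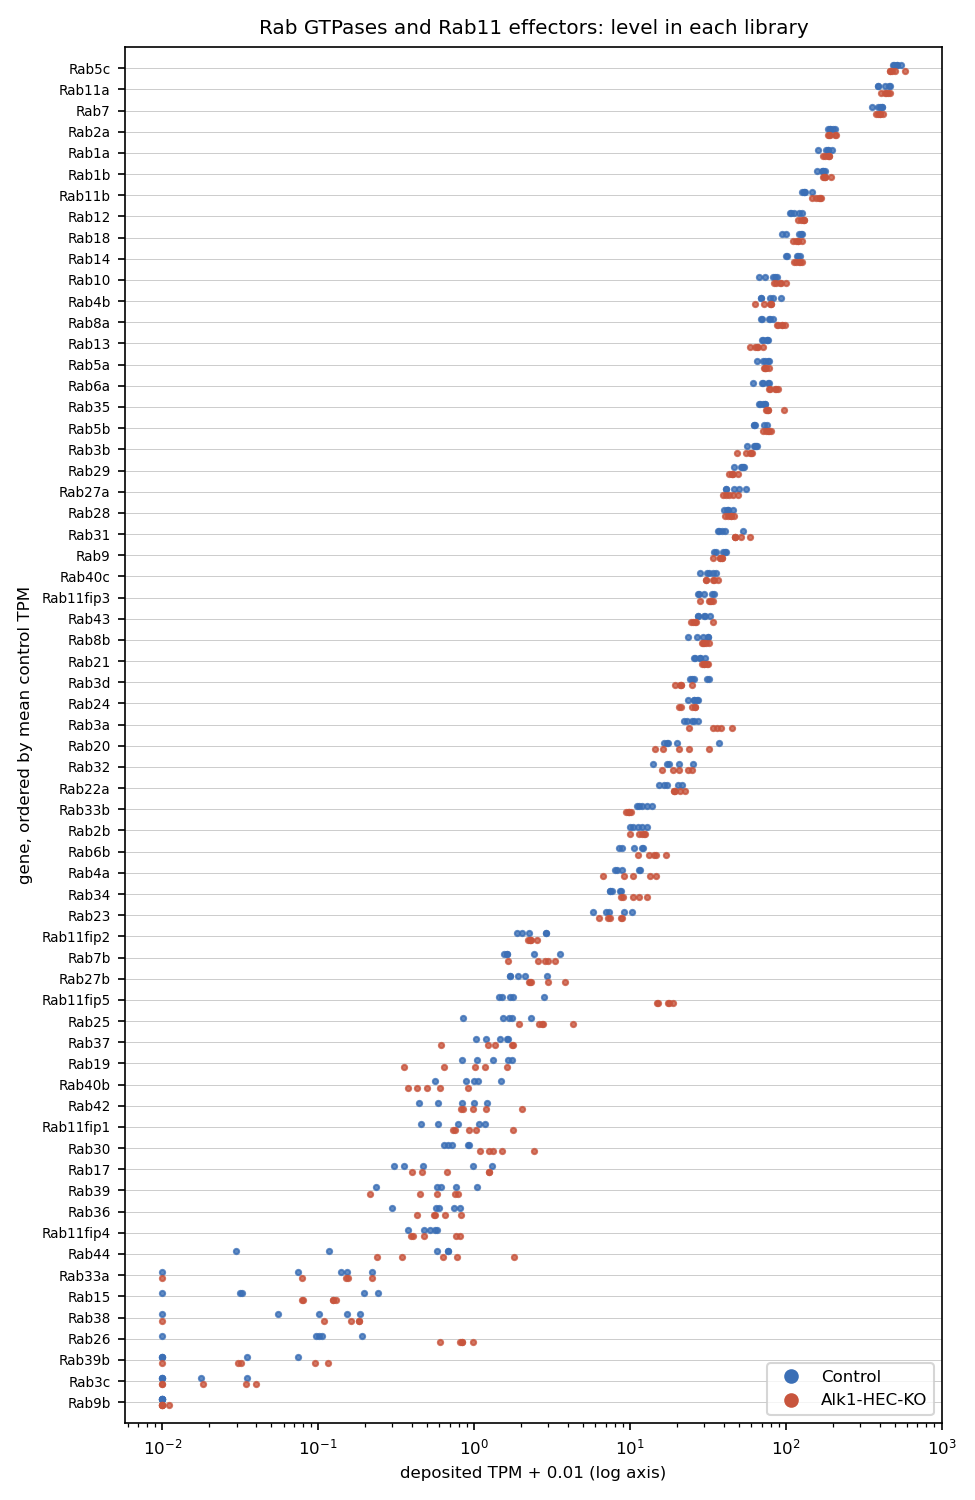
Deposited TPM plus 0.01 on a log axis for each of the 64 members (rows, ordered by mean control TPM), with 1 point per library and 5 libraries per group in each colour. Rab5c, Rab11a and Rab7 lead in both groups, and Rab11fip5 is the member whose groups lie farthest apart among those over 1 TPM in controls.

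Few members differed between the groups. Of the 64 members 56 passed the filter on low counts and were tested, 4 rose, 5 fell and 47 did not pass the adjusted p of 0.05 (edgeR quasi-likelihood test). The 9 called members were 16.1% of those tested, beside 19.7% of all 15043 genes tested. For rises the background was 10.6% of all genes and for falls 9.08%. With other scalings the split was 3 higher and 6 lower (DESeq2 size factors), 6 and 4 (library size alone), 7 and 3 (log2(TPM + 1)) and 6 and 3 (log2(TPM + 0.1)). The median log2 fold change of the tested members was -0.03 and that of all genes 7.8e-05. Of the 56 members 37 (66.1%) had a log2 fold change within 0.2 of 0, as had 59.1% of all genes, and the median absolute log2 fold change was 0.12 for members and 0.15 for all genes.

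For 8 of the 56 tested members (14.3%) the CPM of the groups did not overlap, beside 15.4% of all genes. These shares are near the background. Rab11fip5 was the one member called with a change of more than 2-fold, a class that held 4.87% of all genes. The next in size was Rab40b, near 2-fold at under 1 CPM.

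**Figure D2:**
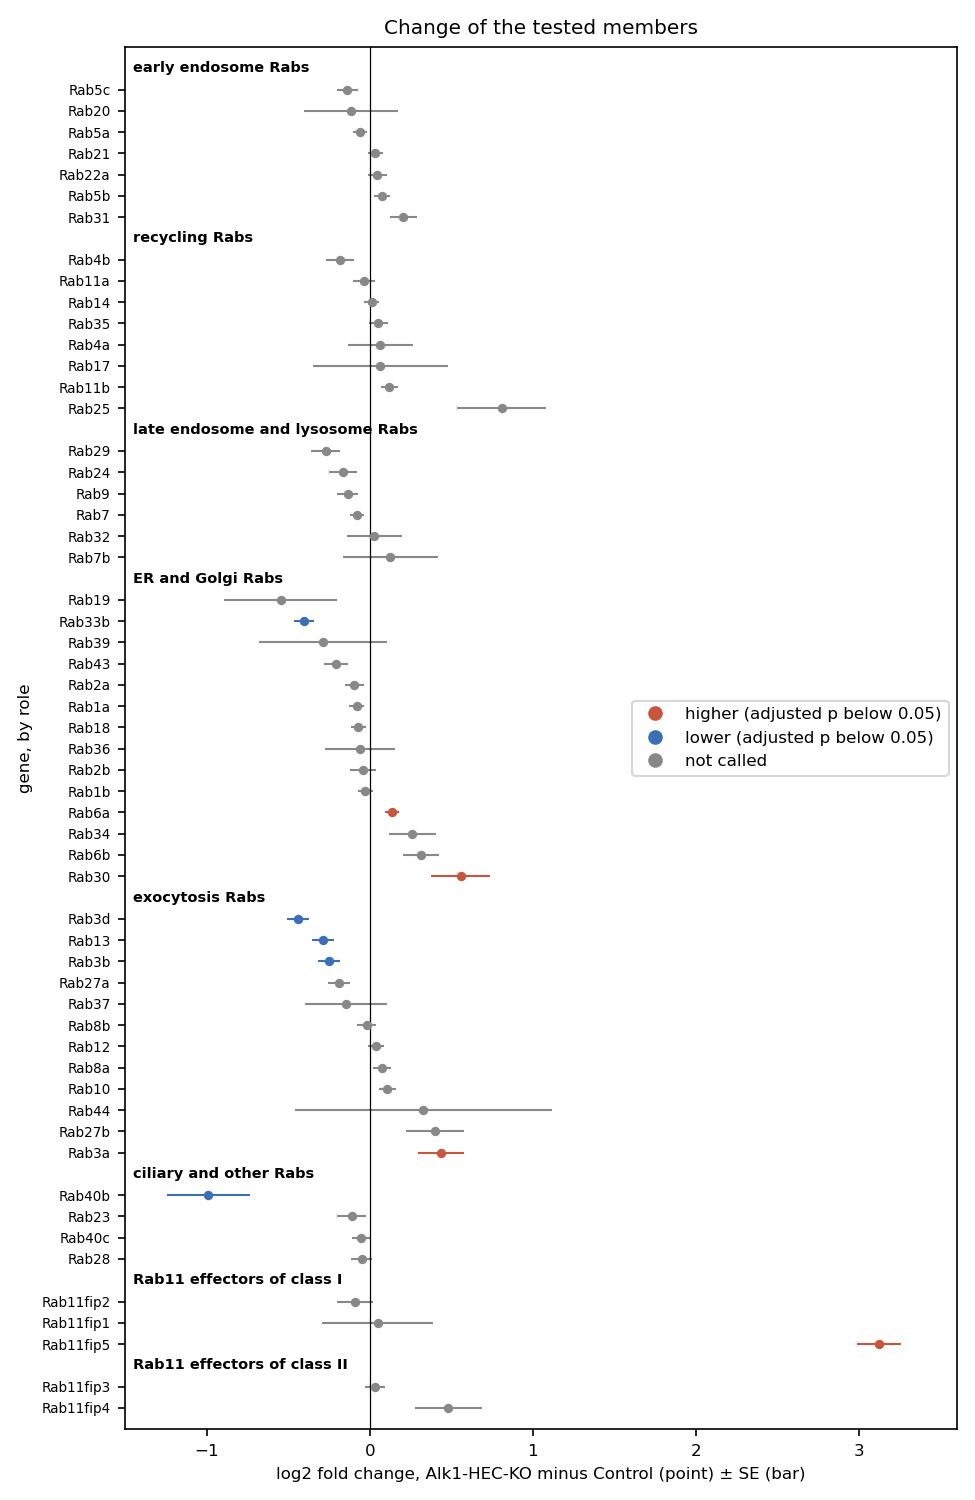
Log2 fold change of knockout-labelled libraries against controls (points) with its standard error (bars) for the 56 tested members, grouped by the compartment or process each is known for. Rab11fip5 stands at 3.12, while most Rabs sit within 0.2 of 0.

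Rab11fip5 (ENSMUSG00000051343.11), a class I Rab11 effector also known as Rip11 or Gaf-1, rose 8.69-fold. The gene lies on chromosome 6 from 85334962 to 85374634 on the minus strand (GRCm38). Controls 1 to 5 had 4.25, 5.06, 4.97, 4.68 and 7.3 CPM, whereas KO 1 to 5 had 50.2, 48, 41.3, 48.8 and 40.3 CPM. Every knockout-labelled library lay above every control, and control 5 was the highest control. The log2 fold change was 3.12 ± 0.14 (SE, edgeR adjusted p = 5.0e-08), with counts of 101 to 171 per control library and 964 to 1195 per knockout-labelled library. Mean TPM was 1.84 ± 0.55 in controls and 16.9 ± 1.77 in knockout-labelled libraries (SD, n = 5 each), which moved the gene from rank 45 to rank 36 of the 64 members. The call held under all 22 alternatives, with log2 fold changes of 2.67 to 3.27 and adjusted p up to 5.2e-05. The lower sinusoidal and higher bile duct marker sums separated the same libraries, and their part in the Rab11fip5 difference was not tested.

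The other class I effectors did not pass the test. Rab11fip2, which links Rab11 to myosin Vb, stood at 7.27, 7.25, 6.11, 5.4 and 5.81 CPM in controls and 5.83, 6.25, 5.58, 6.26 and 5.94 CPM in KO 1 to 5 (log2 fold change -0.09 ± 0.11 SE, edgeR adjusted p = 0.62). The groups overlapped. Rab11fip1, also called RCP, which sorts integrins and receptors for recycling, was at 1.56, 4.12, 4.06, 2.16 and 2.6 CPM in controls and 5.67, 2.71, 2.16, 2.31 and 2.13 CPM in KO 1 to 5 (0.05 ± 0.34, edgeR adjusted p = 0.94). The spread within each group was wide, with KO 1 as the highest library.

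Class II effectors did not pass either. Rab11fip3, which takes part in cytokinesis and in placing recycling endosomes near the centrosome, was the most abundant effector in both groups by TPM. It had 74.8, 62.8, 71.5, 68.8 and 74.9 CPM in controls and 75.3, 71.1, 76, 64.7 and 73.7 CPM in KO 1 to 5 (log2 fold change 0.03 ± 0.06 SE, edgeR adjusted p = 0.77). Rab11fip4 was at 1.49 ± 0.3 and 2.08 ± 0.48 CPM (SD, n = 5 each), with a log2 fold change of 0.48 ± 0.21 (edgeR adjusted p = 0.13).

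The make-up of the effector transcripts differed between the groups through Rab11fip5. In TPM, Rab11fip5 held 5.07% ± 1.19 of the sum of the 5 effectors in controls, with libraries from 3.79 to 6.94%, and 32% ± 2.92 in knockout-labelled libraries, from 28.5 to 35.6% (SD, n = 5 each). The share of Rab11fip3 was 84.7% ± 2.06 in controls and 60.7% ± 3.35 in knockout-labelled libraries. Summed over class I the level was 5.03 ± 0.78 TPM in controls and 20.3 ± 2.14 TPM in knockout-labelled libraries, and over class II 31.1 ± 3.39 and 32.6 ± 2.36 TPM. The Rab11 GTPases themselves did not pass. Rab11a was at 181, 201, 216, 186 and 169 CPM in controls and 195, 182, 189, 189 and 174 CPM in KO 1 to 5 (log2 fold change -0.04 ± 0.07 SE, edgeR adjusted p = 0.76), with full overlap. Rab11b had a log2 fold change of 0.12 ± 0.05 (edgeR adjusted p = 0.13).

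**Figure D3:**
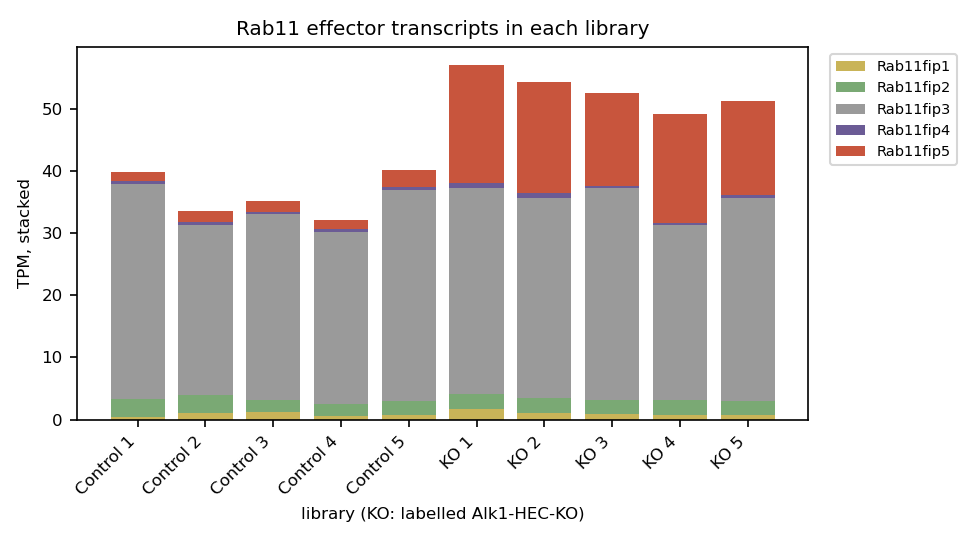
Stacked TPM of Rab11fip1 to Rab11fip5 in each of the 10 libraries (bars from 0; KO stands for the libraries labelled Alk1-HEC-KO). The Rab11fip5 segment is 1.43 to 2.79 TPM in controls and 15 to 19 TPM in knockout-labelled libraries, above Rab11fip3 segments of like height in both groups.

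Among the Rabs of exocytosis, Rab3d, Rab3b and Rab13 fell and Rab3a rose. Of these 12 tested genes 3 fell, 1 rose and 8 did not pass, so 33.3% were called, beside 19.7% of all genes. Rab3d (ENSMUSG00000019066.13, chromosome 9 from 21907491 to 21918192, minus strand) is found on Weibel-Palade bodies and other secretory granules. Controls had 66.8, 60, 58.1, 62.6 and 66.6 CPM, and KO 1 to 5 had 42.3, 45.5, 44.8, 46 and 53 CPM. No knockout-labelled library reached the lowest control. Rab3d fell by 0.44 ± 0.07 on the log2 scale (SE, edgeR adjusted p = 4.9e-04), a call that held under all 22 alternatives (adjusted p up to 0.037). The 6 sinusoidal markers called lower fell by 0.35 to 0.65, and the sinusoidal marker sums separated the same libraries. Their part in the falls of Rab3d and of the other genes called lower was not tested.

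Rab3b, another Rab3 of endothelial secretory granules, was at 41.8, 43.8, 45.1, 44.2 and 42.3 CPM in controls and 38.5, 37.9, 38.5, 37.3 and 30.5 CPM in KO 1 to 5. The groups did not overlap and KO 5 was the lowest library. It fell by 0.25 ± 0.07 (SE, edgeR adjusted p = 0.019). The call ended with library size alone (adjusted p = 0.053), with limma on log2 TPM (0.2) and without controls 4 and 5 (0.066).

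Rab13, which acts in trafficking to tight junctions and in cell migration, was at 43.1, 42.7, 45.7, 51 and 44.7 CPM in controls and 37.8, 33.6, 41, 37.3 and 36.7 CPM in KO 1 to 5. All controls lay above all knockout-labelled libraries. It fell by 0.29 ± 0.07 (SE, edgeR adjusted p = 0.009). Without controls 4 and 5 the call was lost (adjusted p = 0.056).

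Rab3a, best known from synaptic vesicles, went the other way. It was at 16.7, 19.7, 18.4, 21 and 20.2 CPM in controls and 17.8, 26.1, 25.1, 34 and 27 CPM in KO 1 to 5. KO 1 lay within the controls and the other 4 lay above them. The log2 fold change was 0.44 ± 0.14 (SE, edgeR adjusted p = 0.047), and without KO 1 it was 0.54 (0.003). The call ended when any other library was left out (adjusted p from 0.067 to 0.099).

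Within the Rab3 family, Rab3b held 54.5% ± 2.21 of the Rab3 sum in controls and 49.9% ± 5.75 in knockout-labelled libraries (SD, n = 5 each). Rab3d held 24.1% ± 2.18 and 19% ± 1.99, and Rab3a 21.5% ± 1.5 and 31.1% ± 5.25. The Rab3a shares overlapped, at 19.7 to 23.4% in controls and 23.2 to 37.1% in knockout-labelled libraries.

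Rab27a, which docks Weibel-Palade bodies, did not pass. There were 93.5, 82.3, 79.9, 80.9 and 85.2 CPM in controls and 67.2, 76.2, 83.6, 75.7 and 67.5 CPM in KO 1 to 5 (log2 fold change -0.19 ± 0.07 SE, edgeR adjusted p = 0.074), and without KO 3 the adjusted p was 0.026. Only KO 3 lay within the range of the controls, so a smaller p without it is not support for a fall. With any other single library left out the adjusted p was 0.069 to 0.15. Rab8a, Rab8b and Rab10, which carry vesicles to the plasma membrane, had log2 fold changes of 0.08, -0.02 and 0.11 (edgeR adjusted p = 0.38, 0.85 and 0.18).

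Among the 14 tested Rabs of the endoplasmic reticulum and Golgi, Rab33b fell, Rab30 and Rab6a rose and 11 did not pass. The called share was 21.4%, beside 19.7% of all genes. Rab33b (ENSMUSG00000027739.9, chromosome 3 from 51483920 to 51496232, plus strand), a Golgi Rab that binds the autophagy protein Atg16l1, was at 26.2, 26.8, 25.3, 24.6 and 24.9 CPM in controls and 20.9, 18.8, 20.1, 19.3 and 17.5 CPM in KO 1 to 5. Every control lay above every knockout-labelled library. It fell by 0.4 ± 0.06 on the log2 scale (SE, edgeR adjusted p = 5.1e-04), and the call held under all 22 alternatives (adjusted p up to 0.031). Gm38160, an unconfirmed transcribed locus on the opposite strand, covers 18.7% of the exonic bases of Rab33b.

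Rab30, a Golgi Rab, was at 0.84, 1.2, 1.22, 0.94 and 1.24 CPM in controls and 1.68, 1.89, 1.56, 1.47 and 1.42 CPM in KO 1 to 5, from 20 to 46 counts per library. The groups did not overlap (log2 fold change 0.56 ± 0.18 SE, edgeR adjusted p = 0.048). Rab6a, which acts in transport within the Golgi and back to the endoplasmic reticulum, was at 126, 123, 128, 120 and 130 CPM in controls and 132, 143, 139, 134 and 141 CPM in KO 1 to 5. The groups again did not overlap, with a small difference of 0.13 ± 0.04 (SE, edgeR adjusted p = 0.049). Both calls ended when any 1 of the 10 libraries was left out, with adjusted p from 0.055 to 0.12 for Rab30 and 0.055 to 0.15 for Rab6a. Exons of Mrpl48 on the opposite strand cover 19% of the exonic bases of Rab6a.

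Rab6b, the Rab6 known from neurons, was at 28.3, 25.8, 27.6, 36 and 34.2 CPM in controls and 39, 30.5, 37.3, 38.9 and 43.1 CPM in KO 1 to 5 (log2 fold change 0.31 ± 0.11 SE, edgeR adjusted p = 0.062). The groups overlapped at KO 2, and without KO 2 the adjusted p was 0.024. Without control 4 it was 0.03, and without controls 4 and 5 it was 0.014. Leaving out any other single library gave 0.05 to 0.14. The secretory Rabs Rab1a, Rab1b and Rab2a had log2 fold changes of -0.08, -0.03 and -0.09 (edgeR adjusted p = 0.27, 0.74 and 0.28).

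None of the Rabs listed here as endocytic passed the edgeR test, which called 19.7% of all genes. Rab5c, Rab7, Rab29, Rab25, Rab31 and Rab11b were each called under at least 1 alternative. Rab12, which was not called, and Rab13, which was called lower, were listed with exocytosis. Of the early endosome Rabs 7 of 7 did not pass, nor did any of the 8 tested recycling Rabs or the 6 tested Rabs of late endosomes and lysosomes in the edgeR test. Of these 21 genes 6 (28.6%) had an unadjusted p under 0.05, beside 32.3% of all genes. DESeq2 called 2 of the 21, Rab7 and Rab29, lower, beside 22.3% of all genes called by it in either direction. Rab5c was at 537, 569, 578, 605 and 585 CPM in controls and 492, 479, 530, 524 and 589 CPM in KO 1 to 5 (log2 fold change -0.14 ± 0.06 SE, edgeR adjusted p = 0.15). KO 5 lay within the controls and the other 4 below them, and without KO 5 the adjusted p was 0.04. Leaving out any other single library gave 0.11 to 0.29. Rab5a and Rab5b, with the same role in early endosome fusion, had log2 fold changes of -0.06 and 0.08 (edgeR adjusted p = 0.35 and 0.31). Rab5c held 78.6% ± 0.75 of the Rab5 TPM in controls and 76.8% ± 1.36 in knockout-labelled libraries (SD, n = 5 each).

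Rab7, which directs late endosomes to lysosomes, was at 486, 503, 512, 500 and 502 CPM in controls and 465, 471, 484, 466 and 485 CPM in KO 1 to 5. The groups did not overlap, yet the difference was small (log2 fold change -0.08 ± 0.04 SE, edgeR adjusted p = 0.23). The DESeq2 adjusted p was 0.041. On the log2(TPM + 1) scale the sign of the log2 difference turned, to 0.02 (limma adjusted p = 0.87), below the median of 0.08 over all genes. Rab29, a partner of the kinase Lrrk2 at the Golgi and lysosome, was at 30.8, 28.5, 37.6, 38.6 and 32.2 CPM in controls and 28.3, 24.4, 28.1, 29.6 and 28.7 CPM in KO 1 to 5. Control 2 lay within the knockout-labelled libraries, and the log2 fold change was -0.27 ± 0.09 (SE, edgeR adjusted p = 0.052). Without control 1 or control 2 the adjusted p was 0.048 or 0.022, and with DESeq2 it was 0.032. Leaving out any other single library gave an edgeR adjusted p of 0.061 to 0.13.

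The group of ciliary and other Rabs held 1 call among 4 tested genes, 25% beside 19.7% of all genes. Rab40b, an atypical Rab that recruits a ubiquitin ligase complex, was at 1.01, 0.94, 0.57, 1.22 and 1.11 CPM in controls and 0.38, 0.49, 0.51, 0.63 and 0.42 CPM in KO 1 to 5, from 9 to 27 counts per library. Control 3 lay within the knockout-labelled libraries. It fell by 0.99 ± 0.25 on the log2 scale (SE, edgeR adjusted p = 0.016). The call ended with limma on log2 TPM (adjusted p = 0.089), with gene length offsets (0.066) and without controls 4 and 5 (0.12).

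**Figure D4:**
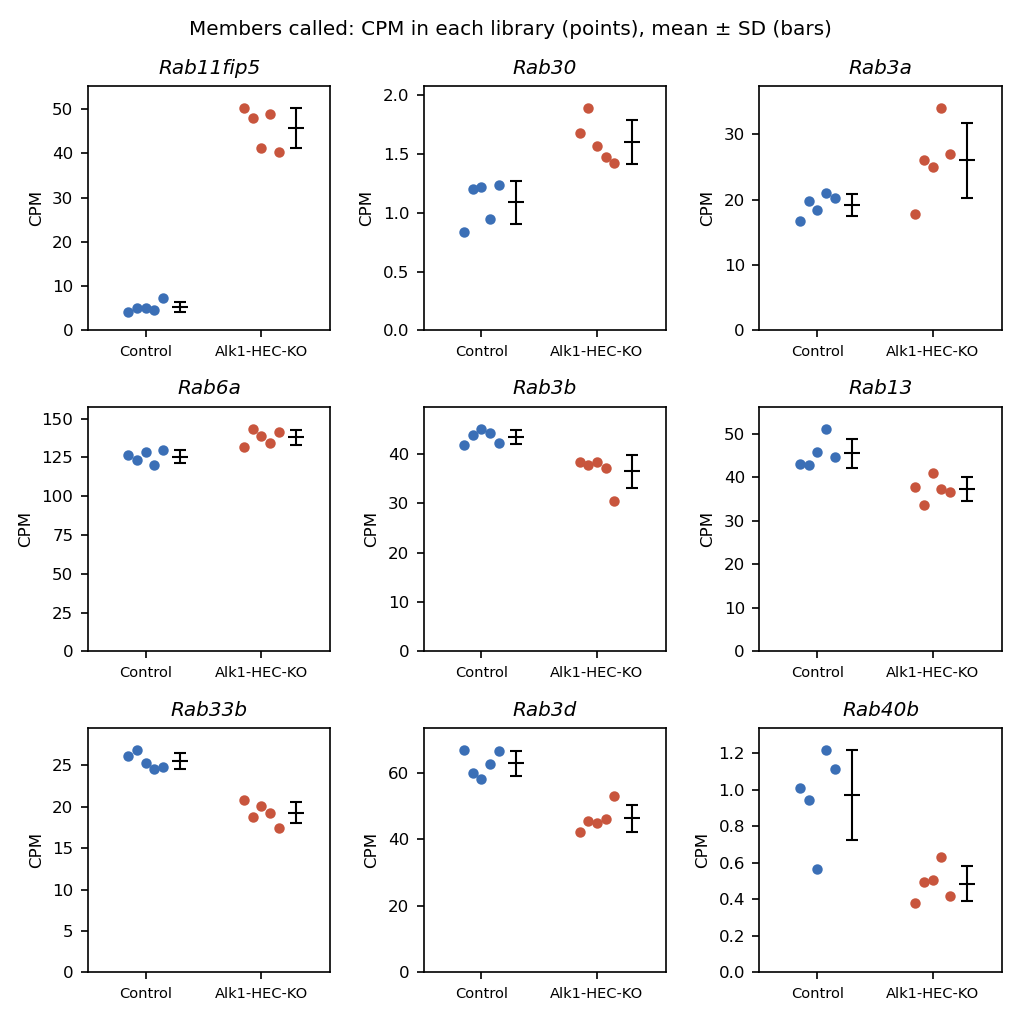
CPM in each library (points; 5 controls and 5 libraries labelled Alk1-HEC-KO) with the mean ± SD beside them, for the 9 called members, each axis from 0. Rab11fip5 rises from about 5 to about 46 CPM, while the other 8 differ by less than 2-fold.

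Rab11fip5, Rab3d and Rab33b were the members whose calls held under every alternative run, so the genomic sequence upstream of their annotated starts is shown. Each is given 5′ to 3′ on the gene's strand, from RefSeq (GRCm38.p6), and ends before the first annotated transcript start. Capitals mark matches to GGCGCC, a GC-rich site bound by SMADs of the BMP branch. The windows are chr6:85374635-85374884 for Rab11fip5, chr9:21918193-21918433 for Rab3d, both minus strand, and chr3:51483716-51483919 for Rab33b, plus strand. The last overlaps an exon of Gm38160 on the other strand.
Rab11fip5: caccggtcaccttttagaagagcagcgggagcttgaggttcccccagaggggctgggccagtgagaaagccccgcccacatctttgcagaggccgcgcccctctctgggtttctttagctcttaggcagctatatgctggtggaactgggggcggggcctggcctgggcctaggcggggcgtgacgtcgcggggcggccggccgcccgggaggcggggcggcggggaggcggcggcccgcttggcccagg
Rab3d: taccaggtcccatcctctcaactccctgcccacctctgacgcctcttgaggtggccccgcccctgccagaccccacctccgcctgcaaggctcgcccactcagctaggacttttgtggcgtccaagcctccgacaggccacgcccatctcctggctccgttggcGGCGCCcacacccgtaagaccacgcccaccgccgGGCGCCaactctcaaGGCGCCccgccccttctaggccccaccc
Rab33b: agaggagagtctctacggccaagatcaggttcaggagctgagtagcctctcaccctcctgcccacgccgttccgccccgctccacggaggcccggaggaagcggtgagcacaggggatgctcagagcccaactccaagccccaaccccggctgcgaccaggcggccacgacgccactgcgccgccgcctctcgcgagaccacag
GGCGCC occurred 3 times in the Rab3d window and not in the other two. Of 32851 RefSeq windows of 250 bases before a start, 9.59% held it on either strand, and 5 of the 65 windows found for 51 members did. The SMAD palindrome GTCTAGAC stood in 0.167% of all windows, the ETS site CCGGAAGT in 2.88% and the E-box CACGTG in 6.02%. None of these 3 was found in the windows shown. The G and C content was 71.2%, 69.3% and 68.6% for Rab11fip5, Rab3d and Rab33b, beside a median of 52.4% over all windows. A match of letters is a description and not a binding site.

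The proteins that load, switch and read Rabs were taken from 7 lists. Of 134 genes 132 were tested, 23 rose, 16 fell and 93 did not pass. The 39 called genes were 29.5% of those tested, beside 19.7% of all genes, and the median log2 fold change was 0.01. This larger share depended on the setting. It came near or below the background under some settings and stayed above it under others. With gene length offsets 11 rose and 12 fell, 17.4% beside 17.1% of all genes. On the log2(TPM + 1) scale 16 rose and 6 fell, 16.7% beside 16.8%. On the log2(TPM + 0.1) scale 15 rose and 6 fell, 15.9% beside 16.7%. Without controls 4 and 5, 9 rose and 9 fell, 13.5% of 133 tested beside 12.6%, and without control 4, 15 rose and 10 fell, 18.8% beside 15.2%.

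Effectors of early and recycling endosomes moved both ways, with 5 higher, 4 lower and 10 not called of 19. The called share was 47.4%, beside 19.7% of all genes. Of the 9 called, Rabep1, Wdr44 and Myo5c lay close to the threshold (edgeR adjusted p = 0.045, 0.048 and 0.049). Shares of single lists are given for the main setting only, and whether they held under the alternatives is not shown. Ehd2, an ATPase at the neck of caveolae, was at 37.4, 38.6, 34.1, 25.3 and 51 CPM in controls and 236, 220, 211, 208 and 171 CPM in KO 1 to 5. The groups lay far apart, a 5.61-fold rise (edgeR adjusted p = 3.8e-06). Its relative Ehd3, an ATPase of recycling endosomes, was at 4186 to 5255 CPM in controls and 3150 to 3653 CPM in knockout-labelled libraries and fell by 0.47 ± 0.08 on the log2 scale (SE). Appl2, a Rab5 effector of early endosomes, fell by 0.45 ± 0.06, and Micall1, an adaptor of tubular recycling endosomes, rose by 0.37 ± 0.06. The lower sinusoidal and higher bile duct marker sums separated the same libraries. Their part in the rises of Ehd2 and of the other listed genes called higher was not tested.

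Of 33 GTPase activating proteins 8 rose, 3 fell and 22 did not pass, so 33.3% were called, beside 19.7% of all genes. Tbc1d16, a GTPase activating protein of Rab4a, was at 4.29, 2.83, 3.45, 3.42 and 2.95 CPM in controls and 14.3, 17, 13.2, 16.5 and 11.9 CPM in KO 1 to 5. Without overlap between the groups, it rose 4.3-fold (edgeR adjusted p = 6.1e-07). Rab4a itself, of fast recycling, was at 6.05 to 9.59 CPM in controls and 5.04 to 10.4 CPM in knockout-labelled libraries (log2 fold change 0.06 ± 0.2 SE, edgeR adjusted p = 0.87). Sgsm1 rose by 1.33 ± 0.27 from a level of 0.48 CPM, Tbc1d2b by 0.37 ± 0.07, and Tbc1d1, which acts on Rabs of glucose transporter traffic, fell by 0.43 ± 0.09.

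Of 35 exchange factors 5 rose, 4 fell and 26 did not pass, so 25.7% were called, beside 19.7% of all genes. Dennd2d and Dennd2c, of the DENN domain family, fell by 0.82 ± 0.09 and by 0.44 ± 0.09 (SE). Rin3, an exchange factor of the Rab5 family, rose by 0.46 ± 0.11 and Dennd5a by 0.25 ± 0.06. Among the 8 genes of prenylation and membrane delivery Chml, a Rab escort protein, was called (0.31 ± 0.1, edgeR adjusted p = 0.041), a call that ended under 12 of the alternatives, among them without control 2, 3 or 4 or without KO 3, 4 or 5. Of 9 exocyst subunits Exoc6 alone was called and fell by 0.35 ± 0.07. The called shares of these last 2 lists were 12.5% and 11.1%, beside 19.7% of all genes.

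Effectors of Rab27 and Rab3 held 3 calls among 9 tested genes, 33.3% beside 19.7% of all genes. Myrip, which ties Rab27a on Weibel-Palade bodies to actin and myosin, was at 13.5, 9.78, 8.64, 8.14 and 8.58 CPM in controls and 3.57, 3.04, 3.55, 3.32 and 3.6 CPM in KO 1 to 5. Every control lay above every knockout-labelled library, and Myrip fell by 1.51 ± 0.15 on the log2 scale (SE, edgeR adjusted p = 1.6e-05). Rph3al and Unc13d, effectors that prime granules for release, rose by 0.59 ± 0.09 and 0.27 ± 0.06. Of 19 effectors of late endosomes and the Golgi 2 rose and 3 fell, 26.3% beside 19.7% of all genes. Among them Rilpl1 and Fyco1 fell by 0.4 ± 0.06 and by 0.26 ± 0.07, and Plekhm1, a Rab7 effector, and Bicd2, a Rab6 effector, rose by 0.21 ± 0.05 and 0.19 ± 0.06. The call of Bicd2 ended under 13 of the alternatives, among them without any 1 library but KO 4. That of Fyco1 ended under 6, among them without control 4 or KO 4.

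Levels of 8 members were set beside the marker sums of other cells. Rab44, Rab11fip1, Rab32 and Rab7b were highest in libraries with high sums of leukocyte markers, and Rab20, Rab17 and Rab27b did not follow the order of their lists. Rab44, a large Rab of bone marrow cells, was at 0.04, 1.54, 1.31, 0.27 and 0.6 CPM in controls and 2.6, 0.9, 0.3, 0.59 and 0.33 CPM in KO 1 to 5. The 5 libraries with the most Rab44 were KO 1, control 2, control 3, KO 2 and control 5. The same 5 libraries were the highest for Rab11fip1, in the same order. They were also the highest for the summed neutrophil and mast cell markers, at 510, 209, 290, 115 and 65.8 CPM in that order, against 18.7 to 57 CPM in the other 5. In that list the neutrophil genes S100a8, S100a9, Retnlg and Csf3r were detected in every library, while the mast cell genes Cpa3, Mcpt4 and Fcer1a were at 0 to 0.13 CPM. Neither Rab44 (log2 fold change 0.33 ± 0.79 SE, edgeR adjusted p = 0.82) nor Rab11fip1 passed the test, and the part of these cells in their levels was not tested.

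Rab32, known from lysosome-related organelles and phagocytes, was at 20.6, 22.1, 34.1, 19.4 and 25.2 CPM in controls and 28.2, 29.4, 22.7, 25.4 and 18.2 CPM in KO 1 to 5 (edgeR adjusted p = 0.93). Control 3 was the highest and KO 5 the lowest. The summed markers of Kupffer cells and macrophages were also highest in control 3, at 1393 CPM, and lowest in KO 5, at 404 CPM. Rab7b, a Rab of myeloid cells, was highest in control 3 as well, at 6.58 CPM (log2 fold change 0.13 ± 0.29 SE, edgeR adjusted p = 0.81). The part of these cells was not tested.

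Rab20, a Rab of phagosomes and early endosomes, was highest in control 2 and KO 1, at 29.1 and 23.8 CPM, but KO 5, at 17.1 CPM, came next, where the neutrophil and mast cell sum was lowest. Rab17, an epithelial Rab of recycling, was at 0.54 CPM in control 4, sixth of the 10 libraries, where the hepatocyte sum was highest. Rab27b, the Rab27 of platelets and secretory cells, was highest in KO 3, at 8.67 CPM, where the platelet sum ranked ninth.

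**Figure D5:**
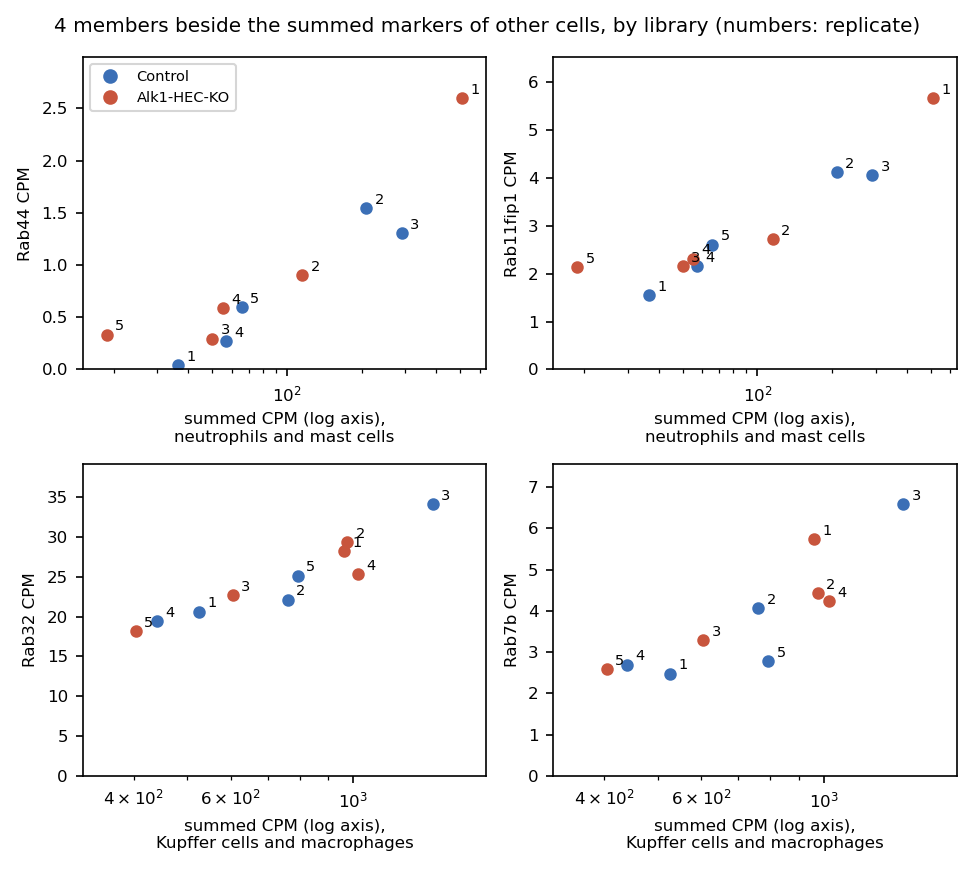
CPM of Rab44, Rab11fip1, Rab32 and Rab7b (vertical axes from 0) against the summed CPM of neutrophil and mast cell markers (upper panels) or of Kupffer cell and macrophage markers (lower panels), on a log axis, with 1 point per library labelled by its replicate number. KO 1 is highest in both upper panels and control 3 in both lower panels.

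Rab25, the epithelial member of the Rab11 subfamily, was at 0.84, 0.99, 0.7, 0.54 and 1.28 CPM in controls and 1.34, 2.3, 1.06, 1.56 and 1.38 CPM in KO 1 to 5, with an overlap at control 5 and KO 3. The log2 fold change was 0.81 ± 0.27 (SE, edgeR adjusted p = 0.055). The call was made without control 5 (adjusted p = 0.029) or KO 3 (0.045). With any other single library left out the adjusted p was 0.073 to 0.15. The 7 markers of bile duct epithelium summed to 183 to 264 CPM in controls and 361 to 617 CPM in knockout-labelled libraries, without overlap. Of the 6 that were tested 5 rose, all but Krt7. Spp1 alone made up most of each sum, at 161 to 235 CPM in controls and 327 to 565 CPM in knockout-labelled libraries. The part of bile duct cells in the Rab25 level was not tested.

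Some members share sequence with other annotated genes, which limits how their reads were assigned. Over 50% of the stretches of 31 bases in the transcripts of Rab43, Rab4b, Rab2b and Rab24 occur in other genes: 74.8%, 62.7%, 59.6% and 54.4%. The genes concerned are mainly the overlapping loci Gm45140, Gm21983, Gm43766 and Prelid1. In the edgeR test none of these 4 members was called. Rab43 (log2 fold change -0.21 ± 0.07 SE, edgeR adjusted p = 0.066) was called lower with DESeq2 (adjusted p = 0.046), with no filter (0.04) and without KO 5 (0.0018). With any other single library left out, Rab43 had an edgeR adjusted p of 0.078 to 0.13. Of the called members, Rab33b shared 22.6% and Rab6a 21.3% of such stretches.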

How the data were processed

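Gene expression was measured by RNA-seq with BGISeq-500 libraries for 5 controls and 5 knockout-labelled samples, grouped by their titles. Whether each library is a separate animal is not stated, so the p-values reflect only sample-to-sample spread, which may be technical. Per the submitters' processing notes, the tools were Trim Galore 0.6.4 and kallisto 0.4.6 and the build was GRCm38.p6. The deposited files hold expected counts (estimated counts per gene) and TPM values made by the authors. The sources used here do not give the annotation, the strandedness or the step from transcripts to genes. Identifiers were matched to GENCODE M21 (55144 of 55385, 54487 also by version).

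Counts, rounded to whole numbers, went into edgeR 4.0.16 (R 4.3.3): filterByExpr with a minimum count of 10 (15043 genes), TMM scaling, robust quasi-likelihood test of genotype, Benjamini-Hochberg adjustment over all genes, threshold 0.05. CPM used TMM-scaled library sizes. Standard errors are the log2 fold change divided by the root of the F statistic. Totals of 23489494 to 23602771 counts leave little counting error in abundant genes, and much in those with few counts. Replicates differed by more than counting noise (chi-square per degree of freedom 11.4 or more), so none was merged. The 22 alternatives were DESeq2 1.42.0, limma 3.58.1 (voom, or log2 TPM with a pseudocount of 1 or 0.1), other scalings, filters and offsets, a replicate block, and left-out libraries. The procedure was also run on simulated counts, whose outcome is not given here and is not used as support for any call. Members, lists, tests and alternatives were chosen with earlier results of these data known. Named genes were the 5 Rab11 effectors, called members of at least 1 CPM, the 8 highest by TPM, tested family members of the called ones, members with a library far from the others, and up to 4 called genes per list. Rab40b and other genes outside this rule were picked with their values known.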

Additional observations from a re-analysis of the deposited data

Results flagged for a closer look

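In 7 of 104 combinations of a member and a group, 1 library lay far from the other 4 by Dixon's criterion, where chance alone gives about 1 in 20. Rab20 was at 29.1 CPM in control 2, with the other controls at 12.1 to 16.5 CPM. Rab21 was at 81.2 CPM in the same library, with the others at 72.3 to 73.9 CPM. Rab34 was at 5.59 CPM in control 1, with the others at 7 to 7.21 CPM. Rab11fip5 was at 7.3 CPM in control 5, with the other controls at 4.25 to 5.06 CPM, and its log2 fold change without control 5 was 3.27. Rab3b was at 30.5 CPM in KO 5, with the other knockout-labelled libraries at 37.3 to 38.5 CPM, and without KO 5 it was still called lower (log2 fold change -0.20, edgeR adjusted p = 0.014). Rab9 was at 25.2 CPM in KO 5, with the others at 29 to 30.1 CPM. Rab11fip1 was at 5.67 CPM in KO 1, with the others at 2.13 to 2.71 CPM.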

How the results depend on the processing

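Of the 9 called members, 3 (Rab11fip5, Rab3d and Rab33b) were called under all 22 alternatives, and 6 lost the call under at least 1. No called member changed sign. Of the members not called, 10 were called under at least 1 alternative. Against 4 members higher, 2 were called with no filter and 7 on the log2(TPM + 1) scale, and 1 to 2 when a library was left out. Against 5 lower, 8 were called with DESeq2, 3 with either TPM pseudocount, 2 without controls 4 and 5, and 5 to 7 when a library was left out. Against 23 machinery genes higher, 15 were called on the log2(TPM + 0.1) scale, 11 with gene length offsets, 9 without controls 4 and 5, and 15 to 21 when a library was left out. Against 16 lower, 6 were called on either TPM scale, 9 without controls 4 and 5, and 10 to 15 when a library was left out. Over all genes, 1366 were lower, against 685 and 687 with TPM pseudocounts of 1 and 0.1 and 866 without controls 4 and 5, and 1593 were higher, against 1840, 1820 and 1074. Among the machinery genes named, Exoc6, Dennd2c, Unc13d, Fyco1 and Chml lost the call on both TPM scales, Dennd5a, Unc13d, Bicd2 and Chml with gene length offsets, and Rin3, Plekhm1, Fyco1, Bicd2 and Chml without controls 4 and 5. The TPM scale moved the median log2 fold change of all genes by 0.08 and 0.10. The causes were not tested. Members under 1 CPM are limited by depth.

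No general pairing by the replicate numbers of the titles was evident: deviations of libraries with the same number correlated at -0.20 to 0.35. Replicate 2 matched its own number best in both directions, and KO 4 matched control 4 best. Such correlations cannot decide whether the libraries were paired. With the replicate number as a block, 3 members were higher and 6 lower, 17 machinery genes were higher and 11 lower, and 1432 genes were higher and 1135 lower.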

Other observations

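Rab26, a Rab of secretory granule maturation, lay below the filter on low counts. It had 0, 2, 2, 4 and 1 estimated counts in controls 1 to 5 and 18, 10, 16, 17 and 9 in KO 1 to 5. Every knockout-labelled library lay above every control, with 9 counts in the controls and 70 in the knockout-labelled libraries in total. With no filter the edgeR adjusted p was 1.5e-04. Its exons share 9.36% of their bases with Traf7 on the same strand. The other 7 members below the filter were Rab15, with 5 and 19 counts in total in controls and knockout-labelled libraries, Rab3c (4 and 7), Rab38 (8 and 10), Rab33a (8 and 8), Rab39b (4 and 11), Rab42 (35 and 49) and Rab9b (none). Without a filter edgeR called none of the 6 with counts (adjusted p from 0.17 to 0.99).

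Rab8a, which carries vesicles to the plasma membrane and the primary cilium, differed in TPM more than in counts. Its TPM was 77.9, 78.9, 70.3, 69.6 and 82.9 in controls and 87.5, 89.6, 94.5, 94.7 and 98.8 in KO 1 to 5, without overlap. On the log2(TPM + 1) scale the difference was 0.29 (limma adjusted p = 0.0072), with gene length offsets it was 0.20 (edgeR adjusted p = 0.018), and in counts alone it was 0.08 (edgeR adjusted p = 0.38). Rab11b had differences of 0.25 on the log2(TPM + 1) scale (limma adjusted p = 0.0093) and 0.15 with gene length offsets (edgeR adjusted p = 0.083). The median log2 fold change of all genes was 0.08 on the log2(TPM + 1) scale and -0.0007 with gene length offsets. Which isoforms of Rab8a and Rab11b were present was not tested.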
